A study of Homo sapiens with 6 samples.

Results

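The genes described here encode 3 groups of splicing factors, the SR proteins with the related TRA2 proteins, the HNRNP proteins and the SF3A and SF3B subunits. Members were the protein-coding genes of the deposited count table whose name was SRSF, SF3A or SF3B followed by a number, began with HNRNP and a letter, or was TRA2A or TRA2B. This gave 46 members among 33981 genes, with 14 SR and TRA2 genes, 23 HNRNP genes and 9 SF3 genes. The rule used names only, though it was set with earlier results of these data known. All 46 passed the filter on low counts, with no fewer than 23 counts for any member in any sample.

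THP-1, a monocytic line established from an acute myeloid leukemia, was transduced with a lentiviral vector carrying a scrambled shRNA (control, n = 3) or an shRNA against NFIC (NFIC knockdown, n = 3), as the labels give it. The sources differ on the control, since the RNA-seq methods of the study name a vector with GFP only, so that whether control cells expressed a hairpin is not settled, and on the name of control sample 2, which is C3 in the labels and C2 in the study's text. GFP-positive cells were sorted on day 4 after transduction, and their total RNA was sequenced in bulk, so all 6 samples share the cell line, the infection and the GFP gate. The knockdown was made with 1 hairpin, named sh494 in the study, and the labels do not say whether the 3 samples of a group came from separate transductions. The p-values below therefore measure only the spread between these samples, which may be technical.

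Before an mRNA leaves the nucleus its introns are removed by the spliceosome. SR proteins bind exons and recruit the machinery to nearby splice sites, HNRNP proteins coat nascent transcripts and often oppose exon inclusion, and the SF3A and SF3B complexes belong to the U2 particle, which selects the branch point near the 3′ splice site. SRSF2, SF3B1, U2AF1 and ZRSR2 are splicing genes that are recurrently mutated in myeloid neoplasms, and many SR and HNRNP genes adjust their own output by splicing in exons that send the transcript to nonsense-mediated decay.

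The sequences that set up the comparison are shown first. The target of sh494 in the NFIC transcript is printed with the 7 bases that pair with the seed of its guide strand (guide bases 2 to 8) in capitals, since any other transcript holding these letters could pair with the same seed.
sh494 target: gatggacaagtcaCCATTCAa
The seed match occurred in the canonical transcript of 7 of the 46 members (15.2%) and of 18.0% of 19092 genes tested. The median log2 fold change of the members with and without it was 0.09 in both cases. Over the 19092 genes it was 0.04 with the match and -0.02 without. An effect of the seed was not tested. NFIC binds the letters TTGGC, alone or as the NFI palindrome, in which TTGGC faces its reverse complement. For each family, the region of 250 bases before the RefSeq start is printed 5′ to 3′ for the gene with the largest rise and the gene with the largest fall whose region lay wholly outside its GENCODE 44 gene model (GRCh38.p14). Capitals mark TTGGC, the CCAAT box, the E-box with the letters CACGTG and the ETS core with the letters CCGGAAG, found on either strand.
SRSF4 (chr1:29181901-29182150, minus strand): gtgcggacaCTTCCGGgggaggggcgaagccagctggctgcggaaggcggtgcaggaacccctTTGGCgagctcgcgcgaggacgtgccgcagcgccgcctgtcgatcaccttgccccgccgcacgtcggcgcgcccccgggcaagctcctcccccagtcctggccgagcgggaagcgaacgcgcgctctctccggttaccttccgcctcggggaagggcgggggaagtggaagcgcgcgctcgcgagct
SRSF12 (chr6:89118072-89118321, minus strand): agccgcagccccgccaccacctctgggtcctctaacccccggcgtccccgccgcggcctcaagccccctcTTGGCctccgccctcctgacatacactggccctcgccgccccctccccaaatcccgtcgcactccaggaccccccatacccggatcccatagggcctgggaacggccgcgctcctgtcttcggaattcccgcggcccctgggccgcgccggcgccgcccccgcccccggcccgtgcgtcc
HNRNPUL2 (chr11:62727458-62727707, minus strand): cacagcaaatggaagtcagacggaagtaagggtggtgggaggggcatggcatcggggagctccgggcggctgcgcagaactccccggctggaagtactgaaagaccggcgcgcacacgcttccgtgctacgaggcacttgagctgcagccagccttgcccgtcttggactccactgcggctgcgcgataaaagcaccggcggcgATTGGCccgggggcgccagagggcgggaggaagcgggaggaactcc
HNRNPA0 (chr5:137754364-137754613, minus strand): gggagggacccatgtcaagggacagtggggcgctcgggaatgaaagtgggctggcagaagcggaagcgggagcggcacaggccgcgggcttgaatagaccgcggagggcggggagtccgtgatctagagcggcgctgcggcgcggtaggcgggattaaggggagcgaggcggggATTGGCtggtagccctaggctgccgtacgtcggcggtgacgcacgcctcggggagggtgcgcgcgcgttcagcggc
SF3B4 (chr1:149927804-149928053, minus strand): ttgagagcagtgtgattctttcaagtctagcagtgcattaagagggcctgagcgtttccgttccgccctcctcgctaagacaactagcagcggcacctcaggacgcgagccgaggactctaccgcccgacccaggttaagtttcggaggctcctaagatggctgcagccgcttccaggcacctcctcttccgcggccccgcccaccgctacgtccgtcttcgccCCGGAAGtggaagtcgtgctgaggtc
SF3B5 (chr6:144095574-144095823, minus strand): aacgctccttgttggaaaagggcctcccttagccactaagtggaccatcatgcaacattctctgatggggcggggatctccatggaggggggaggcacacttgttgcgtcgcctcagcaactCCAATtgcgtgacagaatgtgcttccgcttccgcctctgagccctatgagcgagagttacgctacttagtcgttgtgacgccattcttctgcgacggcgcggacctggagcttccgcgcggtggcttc
SRSF4, HNRNPUL2 and SF3B4 rose and SRSF12, HNRNPA0 and SF3B5 fell. TTGGC stood in the regions of SRSF4, SRSF12, HNRNPUL2 and HNRNPA0, in genes of both directions, and in the HNRNPUL2 and HNRNPA0 regions it overlapped a CCAAT box on the opposite strand. The SF3B4 region held an ETS core and no TTGGC, and the SF3B5 region held CCAAT and no TTGGC. RefSeq regions were matched for 41 members, which had 56 starts. TTGGC occurred in 50.0% of those 56 regions and in 40.8% of 35116 regions of the same length, and the palindrome occurred in 0 of the 56 and in 0.0285% of all. CCAAT occurred in 41.1% against 32.0%, the ETS core in 19.6% against 8.52% and the E-box in 16.1% against 6.34%. These counts describe letters, were not tested, and say nothing about where NFIC was bound.

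NFIC itself was examined first. Its FPKM values (read counts scaled to gene length and library depth, as deposited) were 4.23, 4.17 and 4.27 in the control samples and 1.96, 2.27 and 2.19 in the knockdown samples. NFIC mRNA therefore stood at 50.2% of control (log2 fold change -0.99 ± 0.07 SE, adjusted p = 3.7e-09). Total counts were between 20369543 and 24809720 per sample, so that 3 counts correspond to at most 0.147 CPM (counts scaled to library depth), and such limits cover counting error only. All 8 myeloid markers examined were detected, of which 3 were called higher and 4 lower (87.5% called, beside 59.9% of all genes tested). Of 12 markers of lymphoid, erythroid, epithelial, endothelial and fibroblast cells, 8 were listed and 4 passed the filter on low counts (1 higher, 2 lower), and CD3D, HBB and COL1A2 had at most 3 counts in any sample. PECAM1, which monocytes also express, reached 261 CPM, and no other listed marker of these exceeded 5.65 CPM. Control sample 2 and knockdown sample 3 stood apart from the other 4 on the second principal component, which held 7.37% of the variance.

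A gene was called when its adjusted p was under 0.05 in edgeR's quasi-likelihood test, adjusted by the Benjamini-Hochberg method over all 19182 genes tested. In all, 21 members were called higher and 9 lower after NFIC knockdown. That is 30 of 46 (65.2%), beside 59.9% of all genes tested. By direction, 45.7% of the members were called higher, beside 29.6% of all genes, and 19.6% lower, beside 30.3%. The median log2 fold change of the members was 0.09, and that of all genes tested was -0.01. Highly expressed genes are called more easily, and 43 members had a mean log2 CPM of at least 5. Of these 43, 28 were called (65.1%), beside 74.3% of the 5937 protein-coding genes at that level, and their median was 0.12, beside 0.13 for those genes. By direction, 48.8% of the 43 were called higher, beside 48.2%, and 16.3% lower, beside 26.1%. A stricter test asked whether the change exceeded 1.2-fold. It called 10 members higher, beside 17.5% of all genes tested, and 6 lower, beside 20.9%. Among the members at the higher level 32.6% passed it, beside 42.1% of the protein-coding genes there. The samples of the 2 groups did not overlap for 32 members (69.6%), beside 65.2% of all genes tested. The members were thus called about as often as other genes, and changes were modest, with log2 fold changes between -0.78 and 0.71. In bulk RNA, fewer cells of one kind and less RNA per cell cannot be told apart.

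**Figure D1:**
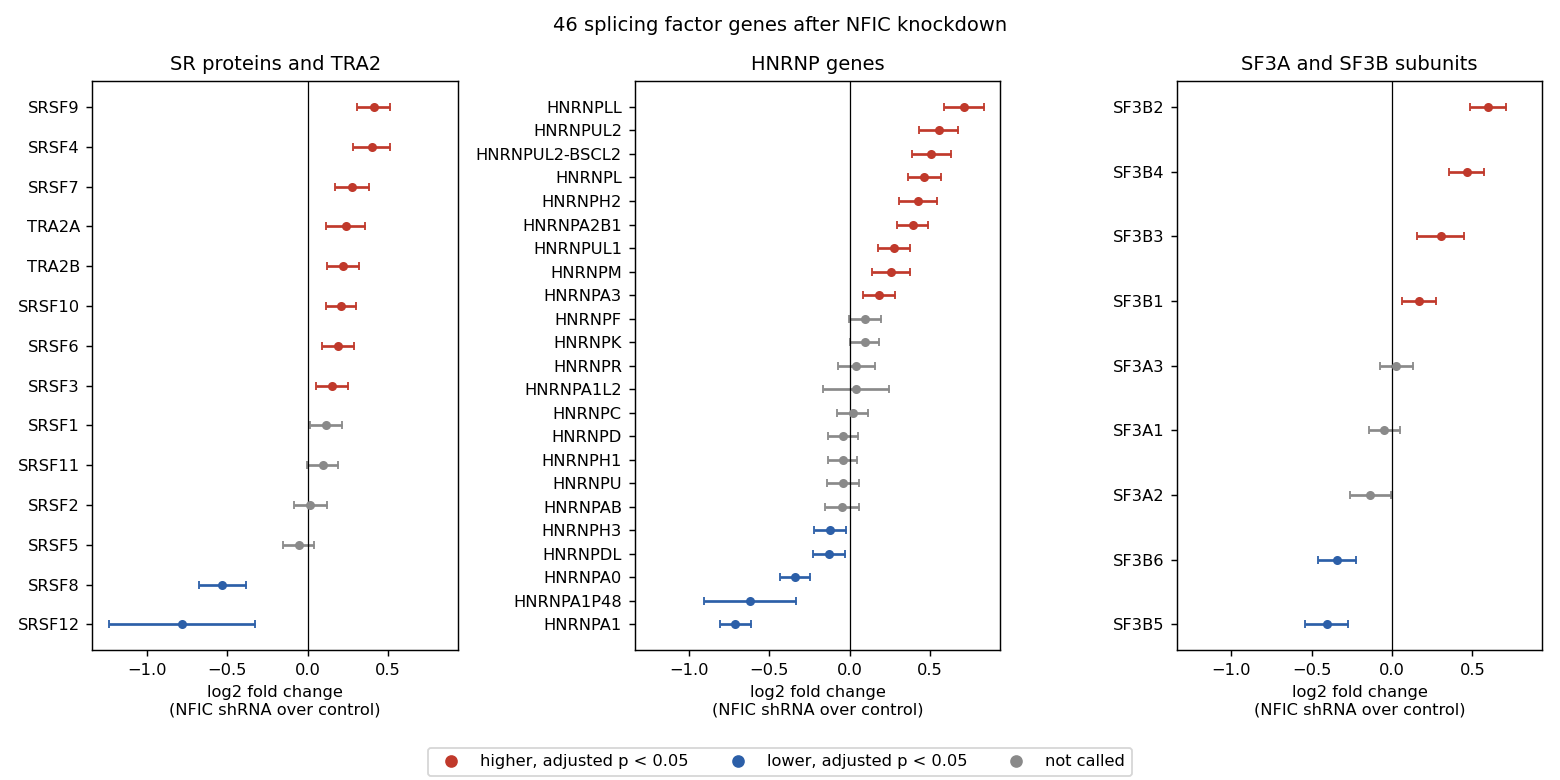
Log2 fold change of NFIC knockdown over control for each of the 46 members, by family, with approximate 95% intervals (horizontal bars) from edgeR. Red points were called higher, blue points lower and gray points were not called; SF3B2, HNRNPLL and SRSF9 head their families, and SF3B5, HNRNPA1 and SRSF12 stand at the lower end.

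Among the SR and TRA2 genes 8 rose, 2 fell and 4 were not called. Thus 71.4% were called, beside 59.9% of all genes tested and 74.3% of protein-coding genes with mean log2 CPM of at least 5. SRSF9, whose product is a short relative of SRSF1, rose 1.33-fold (log2 fold change 0.41 ± 0.05 SE, adjusted p = 2.8e-06), and SRSF4, which encodes a long SR protein, rose 1.32-fold (0.40 ± 0.06, adjusted p = 1.5e-05). Both passed the 1.2-fold test. Smaller increases were found for SRSF7 (log2 fold change 0.28), TRA2A (0.24), TRA2B (0.22), SRSF10 (0.21), SRSF6 (0.19) and SRSF3 (0.15). The SRSF3 call was lost when control sample 1, control sample 3 or knockdown sample 1 was left out (adjusted p = 0.083, 0.069 and 0.098), and with upper-quartile scaling (0.11). TRA2A and TRA2B are activators related to the fly sex-determination factor Transformer-2, SRSF10 acts as a repressor when it is dephosphorylated, and SRSF3 and SRSF7 also link splicing to mRNA export. SRSF9 overlaps GATC on the opposite strand and NRAV on its own, both of which also rose (0.29 and 0.71), and whether the reads were counted by strand was not given in the sources used here.

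Ranks by FPKM depend on the gene length used, which was 1.60 times the canonical transcript for SRSF2 and 3.58 times for SRSF5. By CPM SRSF3 stood above SRSF2 in control (357 against 318). By FPKM SRSF2 was the highest member of this family. Its FPKM was 97.6, 111 and 104 in control and 107, 103 and 110 after knockdown. The groups overlapped, and the log2 fold change of 0.02 had a 95% interval from -0.09 to 0.12. SRSF2 shares its locus with MFSD11 on the opposite strand. SRSF6, next by FPKM, had values of 69.5, 63.2 and 69.5 in control and 78.4, 76.3 and 78.2 after knockdown. All 3 knockdown samples were above the controls, at 1.14-fold (adjusted p = 0.0041). SRSF5, the third in abundance, had 56.3, 57.9 and 60.3 in control and 57.1, 57.3 and 55.3 after knockdown, with overlapping groups and an interval from -0.15 to 0.04. SRSF1, the prototype of the family and a proto-oncogene, was not called, at a log2 fold change of 0.12 with an interval from 0.02 to 0.22 (adjusted p = 0.059). It was called in 6 of 17 alternatives, among them DESeq2 (adjusted p = 0.047), total counts (0.027) and leaving out knockdown sample 2 (log2 fold change 0.16, adjusted p = 0.011). SRSF11 was not called either (0.09 ± 0.05 SE).

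The 2 SR genes that fell are minor ones. SRSF8 arose as a retrocopy of SRSF2, and its FPKM was 9.44, 9.24 and 10.1 in control and 7.22, 6.66 and 6.30 after knockdown. The groups were clearly apart, and SRSF8 stood at 69.3% of control (log2 fold change -0.53 ± 0.07 SE, adjusted p = 8.3e-06). SRSF12, a rarely expressed relative of SRSF10, rested on few reads. It had 50, 67 and 51 counts in control and 38, 23 and 35 after knockdown, at no more than 0.593 FPKM. Its log2 fold change was -0.78 ± 0.23 (adjusted p = 0.0075), the widest interval among the members, and knockdown sample 2 was the lowest. Summed over the 14 genes, SR and TRA2 transcripts amounted to 489.9 ± 5.33 FPKM in control and 538.8 ± 12.2 after knockdown (SD, n = 3). Each knockdown sample exceeded each control sample, and the groups did not overlap for 65.2% of single genes tested.

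**Figure D2:**
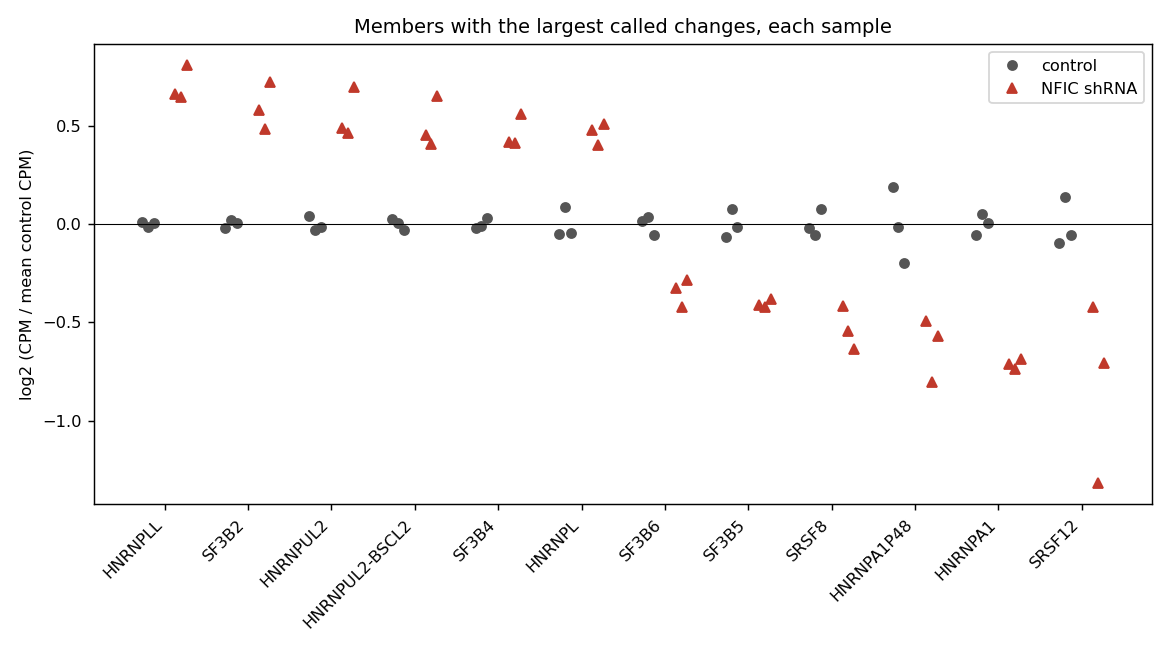
CPM of each sample relative to the mean of the 3 control samples (log2 scale) for the 6 called members with the largest rise and the 6 with the largest fall; gray circles are control samples and red triangles knockdown samples. The groups do not overlap for any of the 12 genes, and SRSF12 and HNRNPA1P48, which have few reads, spread the most.

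Among the HNRNP genes 9 rose, 5 fell and 9 were not called. Thus 60.9% were called, beside 59.9% of all genes tested and 74.3% of protein-coding genes with mean log2 CPM of at least 5. The mRNAs of HNRNPA1 and HNRNPA2B1, which encode the core proteins of the A/B group that bind UAG motifs and silence exons, moved in opposite directions. HNRNPA1 had the highest level of all members in control. Its FPKM was 300.3, 324.5 and 314.7 in control and 192.3, 189.7 and 198.4 after knockdown. No other member lost as much FPKM, and HNRNPA1 stood at 61.1% of control (log2 fold change -0.71 ± 0.05 SE, adjusted p = 1.7e-09). HNRNPA2B1, whose values by sample were added after they were seen, had 91.3, 92.8 and 90.2 FPKM in control and 121.2, 114.9 and 127.5 after knockdown. It rose 1.31-fold (0.39 ± 0.05, adjusted p = 2.9e-06) while CBX3, which overlaps it on the opposite strand, fell (-0.12). The FPKM ratio of HNRNPA1 to HNRNPA2B1 thereby went from 3.42 to 1.60, a difference of -1.10 on the log2 scale with SDs of 0.05 in control and 0.04 after knockdown.

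HNRNPA1 made up 21.3% ± 0.50 of the summed HNRNP FPKM in control and 13.2% ± 0.17 after knockdown (SD, n = 3). The sum over the 23 genes was 1470 ± 23.5 FPKM in control and 1465 ± 53.1 after knockdown, with overlapping samples. The summed level thus overlapped between the groups, while HNRNPA1 took a smaller share of it after knockdown. Without HNRNPA1 the sum over the other 22 genes was 1157 ± 11.6 FPKM in control and 1271 ± 48.6 after knockdown. In that sum each knockdown sample exceeded each control sample. HNRNPA1 was the member that lost the most FPKM, and the whole sum overlapped between the groups. A higher sum over the rest therefore follows largely by arithmetic and is not a separate result. The median log2 fold change of protein-coding genes with mean log2 CPM of at least 5 was 0.13. Among single genes tested, the groups did not overlap for 65.2%. The table also lists 27 HNRNPA1 pseudogenes, whose counts came to 0.526% of those of HNRNPA1. Adding them to the parent gene left the numbers of called members at 21 and 9. Of the windows of 100 bases in the HNRNPA1 transcript, 27.1% also occur in other genes, so part of its reads is uncertain.

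HNRNPA1P48, a copy of HNRNPA1 that the annotation lists as coding, followed its parent. It had 3.90, 3.40 and 3.01 FPKM in control and 2.45, 1.99 and 2.36 after knockdown, a log2 fold change of -0.62 ± 0.15 (adjusted p = 0.0015). Its reads are uncertain, because 33.3% of the windows of 100 bases in its transcript also occur in HNRNPA1. HNRNPA1L2, another copy, lies within a longer gene that shares all of its sequence, and was not called (0.04, interval -0.17 to 0.25). HNRNPA0, an intronless relative that binds AU-rich mRNAs, fell to 78.9% of control (-0.34 ± 0.05, adjusted p = 9.9e-06). HNRNPA3 was the third most abundant gene of the family, with 112.3, 120.2 and 118.0 FPKM in control and 132.1, 128.2 and 142.1 after knockdown. All its knockdown samples were higher, at 1.14-fold (adjusted p = 0.0050), and NFE2L2 on the opposite strand rose as well (0.26). HNRNPAB was not called (-0.05, interval -0.15 to 0.06).

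HNRNPL and HNRNPLL, which bind CA repeats and repress exons such as those of CD45 in lymphocytes, both rose. HNRNPLL had the largest increase of any member, from 6.55, 6.44 and 6.56 FPKM in control to 10.4, 10.3 and 11.6 after knockdown. That is 1.63-fold (log2 fold change 0.71 ± 0.06 SE, adjusted p = 4.2e-08). HNRNPL, at 5.25 times the FPKM of HNRNPLL in control, had 33.0, 36.4 and 33.3 FPKM in control and 47.9, 45.6 and 49.6 after knockdown. It rose 1.38-fold (adjusted p = 8.8e-07). Of the 100-base windows of its transcript 28.9% occur in other genes, and 22.6% in an overlapping gene model on the same strand. HNRNPUL2, a DNA- and RNA-binding relative of HNRNPU with a role in DNA end resection, had 16.7, 15.9 and 16.2 FPKM in control and 22.9, 22.6 and 26.8 after knockdown. The rise was 1.47-fold (0.55 ± 0.06, adjusted p = 7.0e-07). HNRNPUL2-BSCL2 is a readthrough gene. It had 19.3, 19.1 and 18.7 FPKM in control and 26.2, 25.5 and 30.4 after knockdown (log2 fold change 0.51 ± 0.06, adjusted p = 2.1e-06). It cannot be read as a second gene, since 97.5% of its windows of 100 bases occur in other genes, and 58.7% in HNRNPUL2.

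HNRNPUL1 rose 1.21-fold (adjusted p = 0.00016) and overlaps TGFB1 on the opposite strand, which rose too (0.36), whereas HNRNPU, a nuclear scaffold protein that binds chromatin-associated RNA, was not called (-0.04, interval -0.14 to 0.06). Among the H and F proteins, which bind runs of G, HNRNPH2 rose 1.34-fold (0.42 ± 0.06, adjusted p = 1.2e-05), HNRNPH3 was called lower by a small margin (-0.12, adjusted p = 0.041), and neither HNRNPH1 (-0.04) nor HNRNPF (0.09) was called. The HNRNPH3 call was lost in 11 of 17 alternatives, among them 5 left-out samples (adjusted p between 0.052 and 0.18), DESeq2 (0.12) and total counts (0.070), and HNRNPF was called without knockdown sample 2 (0.13, adjusted p = 0.042). The readthrough gene RPL36A-HNRNPH2 overlaps HNRNPH2 on the same strand and holds 12.1% of the 100-base windows of the HNRNPH2 transcript. It had more counts than HNRNPH2 (55295 against 7864 over all samples) and fell (-0.66). How many of its reads came from the shared part was not tested, so its fall cannot be read as one of HNRNPH2. Of the D proteins, which bind AU-rich elements, HNRNPDL was called lower (-0.13, adjusted p = 0.034) and HNRNPD was not called (-0.04). The HNRNPDL call was lost without control sample 1 or 2 or knockdown sample 1 or 3, at adjusted p between 0.081 and 0.098, and with DESeq2 (0.075). HNRNPM, a binder of GU-rich sites, rose 1.19-fold (adjusted p = 0.0014). HNRNPK binds C-rich RNA and was second by FPKM in the family. Its FPKM was 142 in each control sample and 152, 149 and 158 after knockdown. The groups did not overlap, yet HNRNPK was not called, at a log2 fold change of 0.09 with an interval from 0.00 to 0.18 (adjusted p = 0.097). It was called with total counts (adjusted p = 0.044) and with the block on the numbers in the sample names (0.037). HNRNPC, which binds runs of U (0.02, interval -0.08 to 0.11), and HNRNPR (0.04, interval -0.07 to 0.15) were not called.

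In the SF3 group 4 genes rose, 2 fell and 3 were not called. These are 6 of 9 called (66.7%), beside 59.9% of all genes tested and 74.3% of protein-coding genes with mean log2 CPM of at least 5. SF3B1, the large subunit that contacts the branch helix, had 58.1, 55.3 and 58.4 FPKM in control and 63.3, 61.4 and 70.5 after knockdown. All knockdown samples were higher, but the rise was only 1.12-fold (0.17 ± 0.05, adjusted p = 0.013) and was no longer called without control sample 2 (log2 fold change 0.14, adjusted p = 0.060), without control sample 2 and knockdown sample 3 (0.08, adjusted p = 0.099) and with upper-quartile scaling (0.11, adjusted p = 0.079). SF3B2, which binds the pre-mRNA near the branch point, rose from 17.3, 17.9 and 17.7 FPKM to 26.4, 24.9 and 29.6. This was the largest rise in the complex, 1.51-fold (0.60 ± 0.06, adjusted p = 1.1e-07). SF3B4, its binding partner, had 52.3, 52.9 and 54.6 FPKM in control and 71.3, 71.4 and 80.0 after knockdown, a rise of 1.38-fold (0.46 ± 0.06, adjusted p = 1.4e-06). SF3B3, a scaffold of beta-propellers around SF3B1, rose 1.23-fold (0.30 ± 0.07, adjusted p = 0.0028).

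SF3B5 and SF3B6, which have the shortest gene models of the SF3 genes examined, went the other way. SF3B5 had 53.3, 59.1 and 55.5 FPKM in control and 42.3, 42.1 and 43.8 after knockdown. It stood at 75.5% of control (-0.41 ± 0.07, adjusted p = 5.9e-05). SF3B6, the subunit next to the branch adenosine, had 59.3, 60.4 and 56.7 FPKM in control and 47.2, 44.3 and 49.1 after knockdown. It stood at 78.8% of control (-0.34 ± 0.06, adjusted p = 9.4e-05), and its groups were also clearly apart. SF3A1 (-0.05, interval -0.15 to 0.05), SF3A2 (-0.13, interval -0.26 to -0.01, adjusted p = 0.082) and SF3A3 (0.03, interval -0.08 to 0.13) were not called. SF3A2 was called lower in 3 of 17 alternatives, among them leaving out knockdown sample 2 (-0.19, adjusted p = 0.018). SF3B4, SF3B5 and SF3B6 were at 53.2, 56.0 and 58.8 FPKM on average in control and at 74.2, 42.7 and 46.9 after knockdown. By FPKM SF3B4 thus went from the lowest of the 3 to the highest. This rank depends on the gene length used, which was 1.10, 1.00 and 1.73 times the canonical transcript for SF3B4, SF3B5 and SF3B6. By CPM SF3B4 was the highest of the 3 in control already (91.8, against 39.1 for SF3B5 and 66.9 for SF3B6). Gene length differed between these subunits. SF3B5 and SF3B6 are among 3 members whose gene model is shorter than 1500 bases, and of the 745 protein-coding genes tested below that length 267 were called lower and 176 higher, with a median log2 fold change of -0.11. The part of gene length in the fall of SF3B5 and SF3B6 was not tested. Across all 46 members the log2 fold change and the log2 gene length had a Spearman's rho of 0.25 and a Pearson's r of 0.27, given as a description over genes, which are not independent.

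**Figure D3:**
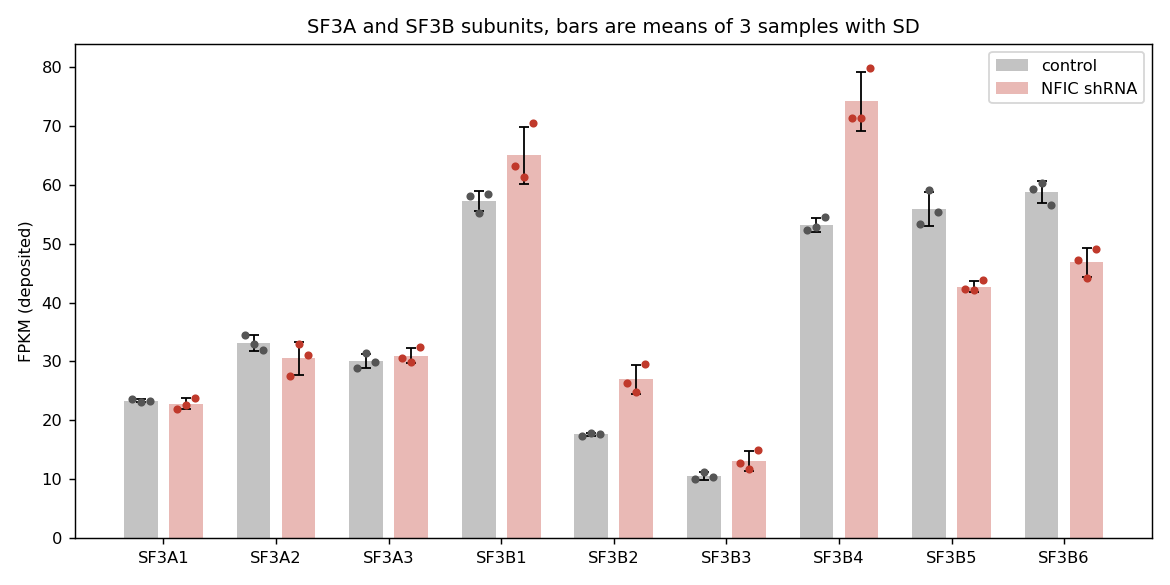
Deposited FPKM of the 9 SF3A and SF3B genes; bars are means of 3 samples, error bars are SD, points are samples, gray for control and red for knockdown. SF3B1, SF3B2, SF3B3 and SF3B4 are higher after knockdown, SF3B5 and SF3B6 are lower, and the SF3A genes overlap.

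Ratios between related genes were compared in each sample for 12 pairs. For 8 pairs (66.7%) the samples of the 2 groups did not overlap, beside 65.2% of single genes tested. With 3 samples against 3 the exact two-sided permutation test cannot give a p under 0.1, which is the value each of the 8 had (0.15 after adjustment over the 12 pairs), so none can pass. After HNRNPA1/HNRNPA2B1, the ratio SRSF10/SRSF12 shifted by 1.02 on the log2 scale but rests on the few SRSF12 reads. SRSF2/SRSF8 shifted by 0.55 and went from 10.8 to 15.9 as an FPKM ratio. HNRNPH1/HNRNPH2 went from 4.23 to 3.06 and SRSF1/SRSF9 from 2.15 to 1.75. HNRNPL/HNRNPLL, HNRNPUL1/HNRNPUL2 and SRSF3/SRSF7 also fell without overlap between the groups, each with the second gene rising more. For TRA2A/TRA2B the ratio was 1.46 in control and 1.48 after knockdown, and for HNRNPR and its relative SYNCRIP it was 0.459 and 0.458, with overlapping samples in both cases.

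**Figure D4:**
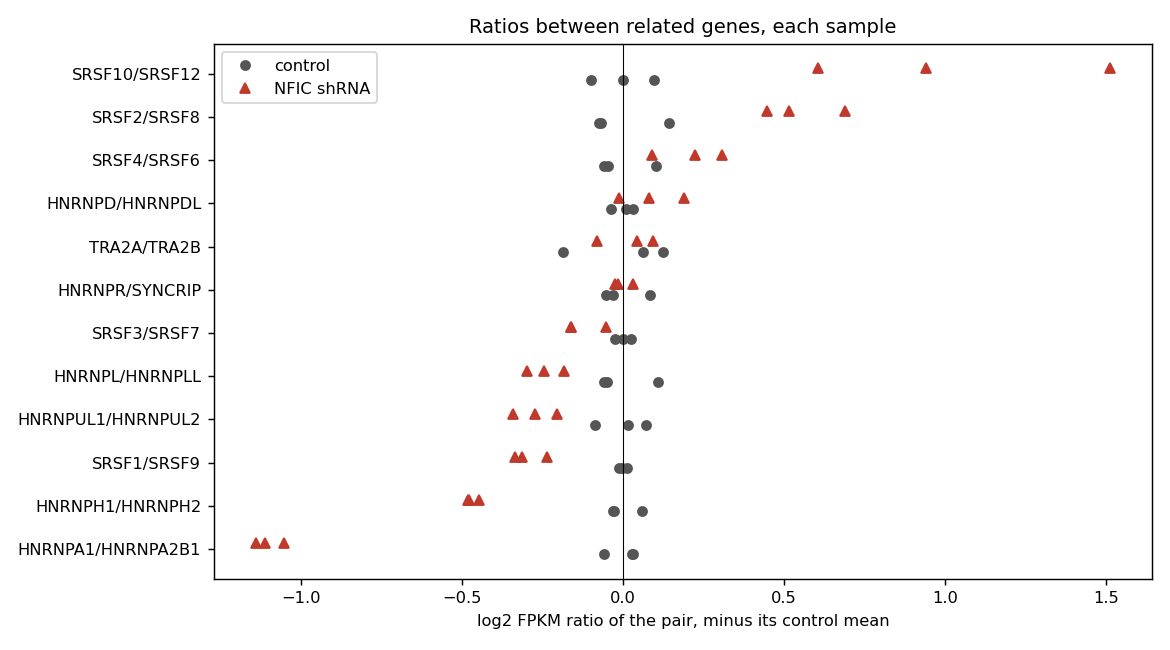
Log2 FPKM ratio of 12 pairs of related genes in each sample, minus the mean of the 3 control samples; gray circles are control and red triangles knockdown. The ratio HNRNPA1/HNRNPA2B1 lies about 1.10 below control in all 3 knockdown samples, and the TRA2A/TRA2B and HNRNPR/SYNCRIP ratios overlap between the groups.

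Annotated isoforms were counted because gene counts sum over them. In GENCODE 44, 32 of the 46 members (69.6%) have a transcript marked for nonsense-mediated decay, beside 39.0% of 20046 coding genes, and all 14 SR and TRA2 genes do. Such a transcript was listed for 21 of the 30 called members, and for 4 of the 9 that fell. A retained-intron transcript was listed for 33 members. The deposited counts do not separate these isoforms, so a change in a member may lie in its coding or its decay-bound transcripts. Knockdown sample 3 was the farthest of the knockdown samples from the control mean in 20 of the 30 called members, including 17 of the 21 that rose. Without control sample 2 and knockdown sample 3, 21 members were still called higher and 8 lower.

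The rest of the splicing machinery was described from 8 lists holding 161 genes, all of which were tested. Of these genes 80 were called higher (49.7%, beside 29.6% of all genes tested) and 29 lower (18.0%, beside 30.3%), with a median log2 fold change of 0.15. At a mean log2 CPM of at least 5 stood 140 of them, of which 68.6% were called, beside 74.3% of the protein-coding genes at that level, with 52.1% higher, beside 48.2%, and 16.4% lower, beside 26.1%. In the list of U1, U2AF and U2 genes without an SF3 name, 14 of 23 were called higher (60.9%) and 1 lower (4.35%, median 0.22). The 14 include U2AF1, whose counts are uncertain, and without it the number was 13 of 22, a count added after seeing the data. U2AF2, the large subunit that binds the polypyrimidine tract, rose (0.58 ± 0.05, adjusted p = 2.0e-08), as did SUGP1, a partner of SF3B1 (0.56), and DHX15, a helicase that disassembles spliceosomes (0.46). LUC7L3, a U1-associated protein, fell (-0.57). U2AF1 was listed at 34, 34 and 21 counts in control and 46, 37 and 52 after knockdown. It was called higher (0.62, adjusted p = 0.037) but lost the call in 4 of 6 fits with a sample left out, and with DESeq2 (adjusted p = 0.12). These values are not a measure of the gene, since GRCh38 holds a near-identical copy, U2AF1L5, to which the reads match as well. ZRSR2, its relative in the minor spliceosome, had a log2 fold change of 0.30 ± 0.13 (adjusted p = 0.062) and was called without knockdown sample 3 (0.38, adjusted p = 0.030).

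The lists that follow stand beside 29.6% called higher and 30.3% lower among all genes tested. Among protein-coding genes with mean log2 CPM of at least 5 these shares were 48.2% and 26.1%. In the U5 and U4/U6 list 13 of 18 rose (72.2%) and 2 fell (11.1%, median 0.29). PRPF3 (0.76), CD2BP2 (0.76) and DDX23 (0.68), which act in the tri-snRNP or its assembly, rose. SNU13, a small protein that binds U4 and box C/D RNAs, fell (-0.80), as did TXNL4A (-0.22). Of the PRPF19 complex and catalytic step proteins 16 of 23 rose (69.6%) and 1 fell (4.35%, median 0.37). CWC27 (0.75), the helicase DHX38 (0.70) and the second-step factor SLU7 (0.61) were called higher and DHX16 lower (-0.19). The DHX16 call was lost without any 1 of 4 samples (adjusted p between 0.059 and 0.15). Sm and LSm proteins, which form the rings around snRNAs, were split, with 5 of 15 higher and 5 lower (33.3% each, median -0.05). SNRPB (0.32), LSM5 (0.33) and SNRPD3 (0.22) rose, and LSM2 (-0.51), LSM7 (-0.40) and LSM6 (-0.43) fell. Of 8 minor spliceosome proteins 4 rose (50.0%) and 2 fell (25.0%, median 0.21). SCNM1 was at 0.52, SNRNP48 at 0.40, ZCRB1 at 0.24, ZMAT5 at -0.85 and RNPC3 at -0.65.

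Among the kinases, methyltransferases, importers and exporters that act on SR and HNRNP proteins, 8 of 14 rose and 4 fell (median 0.21). That is 57.1% and 28.6%, beside 29.6% and 30.3% of all genes tested. NXF1, the mRNA export receptor for which SR proteins are adaptors, rose 1.04 ± 0.06 on the log2 scale (adjusted p = 1.7e-10). TNPO3, which imports phosphorylated SR proteins, rose 0.67, and CLK3, a kinase of their RS domains, rose 0.53. PRMT1, the main enzyme that methylates arginines of HNRNP proteins, fell by 1.08 (SE 0.07, adjusted p = 2.0e-09) and PRMT5 by 0.35. DYRK1A also fell (-0.31). TNPO1, the importer of HNRNPA1, is outside the rule for named genes and was named after its value was seen (0.46). Among 46 other RNA-binding regulators 17 rose (37.0%) and 13 fell (28.3%, median 0.04), near the shares over all genes. SRRM1 (-0.84), PCBP1 (-0.74) and SRRM2 (-0.60), of which SRRM1 and SRRM2 are RS-rich coactivators, fell, and MBNL1 (0.38), SON (0.39) and ACIN1 (0.35) rose. Of 14 nonsense-mediated decay and exon junction factors 10 were not called, 3 rose, among them SMG1 (0.54) and SMG5 (0.12), and 1, CASC3, fell (-0.32). Thus 28.6% were called, beside 59.9% of all genes tested. SMG5 lost its call without any 1 of 4 samples (adjusted p between 0.067 and 0.16).

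**Figure D5:**
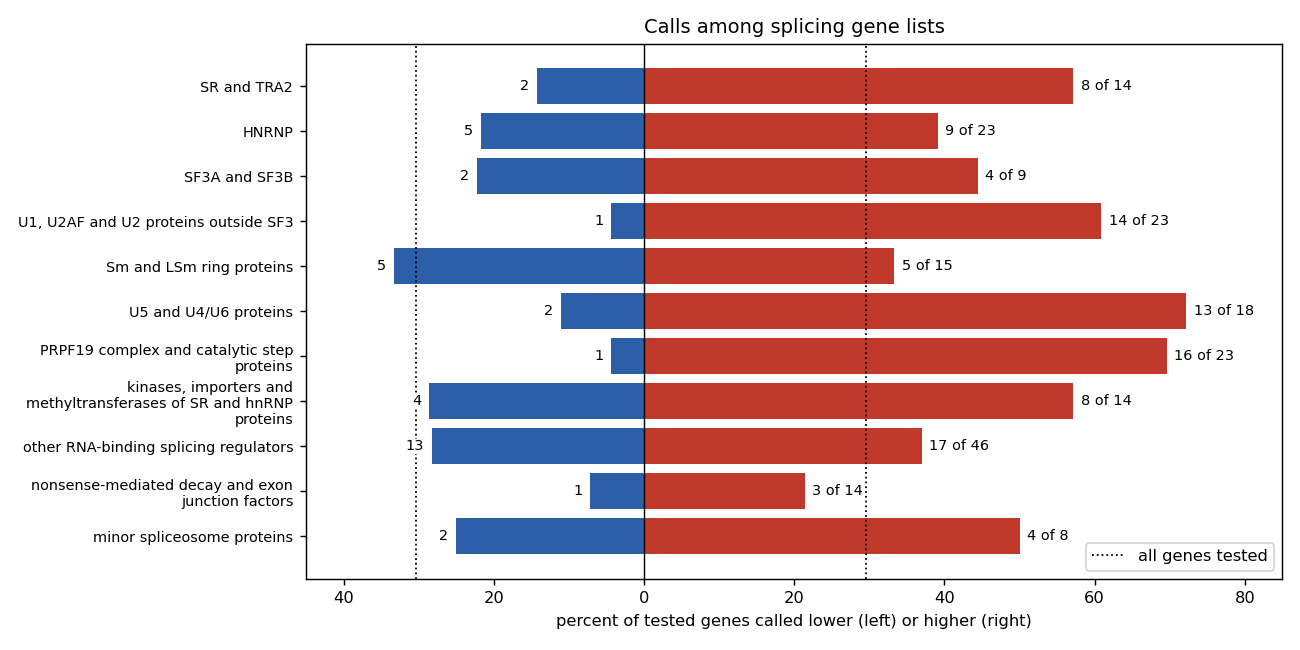
Percent of the tested genes of each family or list that were called higher (red, right of 0) or lower (blue, left of 0), with the number of genes beside each bar; dotted lines mark the percent of all genes tested, 29.6% higher and 30.3% lower. The U5 and U4/U6 and the PRPF19 lists reach farthest to the right, and the Sm and LSm list has equal numbers on both sides. Among protein-coding genes with mean log2 CPM of at least 5, not drawn, 48.2% were called higher and 26.1% lower.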

How the data were processed

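Bulk RNA-seq of 6 THP-1 samples was analysed from 1 deposited table. The authors trimmed reads with Trim Galore, aligned them to GRCh38 with STAR and made raw gene counts with featureCounts. The authors also deposited a normalized signal (counts over a DESeq2 size factor, with its mean over samples), FPKM values made from it and the gene length, and their DESeq2 comparison (log2 fold change, its error, Wald score, p-value and adjusted p-value). That comparison was not used here. No per-sample column was left unassigned.

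Counts were tested with edgeR 4.0.16 in R 4.3.3 (TMM, filterByExpr, robust quasi-likelihood fit, no covariate), and against a fold of 1.2 with glmTreat. Adjustment covered all 19182 genes tested. The SE is the log2 fold change over the square root of F, and intervals are 1.96 SE on either side. Levels are deposited FPKM. DESeq2 1.42.0, other scalings and filters, added pseudogene counts, replicate blocks and left-out samples were the alternatives. RefSeq regions and GENCODE 44 models were matched by symbol or identifier. The members and lists were chosen with earlier results of these data known. Values in every sample are given for the 6 called members with the largest rise and the 6 with the largest fall at a mean log2 CPM of at least 1, the 3 of highest FPKM in each family, SRSF2 and SF3B1. From each other list up to 3 called genes in each direction with the smallest adjusted p were named, with U2AF1 and ZRSR2. Of the genes that this rule names, 1 is not reported here. The comparison with genes at a mean log2 CPM of at least 5 was chosen after seeing the data.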

Additional observations from a re-analysis of the deposited data

How the results depend on the processing

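The numbers of members called higher and lower (21 and 9) and of members past 1.2-fold (10 and 6) stayed within 1.5 times these counts under the alternatives tried, of which DESeq2 gave no 1.2-fold test. Over the other scalings and filters, added pseudogene counts and DESeq2, 19 to 23 were called higher and 7 to 10 lower, and over single samples left out 20 to 23 and 7 to 9. Leaving out HNRNPUL2-BSCL2 and the HNRNPA1 copies, a choice made after seeing the data, gave 20 and 8. Of the 30 called members, 25 kept their call in all 17 alternatives, and SF3B1, SRSF3, SRSF12, HNRNPDL and HNRNPH3 lost it in some. Of the 16 members not called, SRSF1, HNRNPK, HNRNPF and SF3A2 were called in some. No called member changed direction.

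Deviations of samples with the same label number had correlations of 0.056, -0.086 and -0.045. For the same number in the sample names they were 0.056 and 0.15. The value of 0.15 was the highest among all pairs of a control and a knockdown sample. It belongs to the control and knockdown samples that stood apart from the others on a principal component. With so few samples a group, these correlations cannot decide whether samples were paired, and a shared batch was not tested. With a replicate block on the label numbers 21 members were called higher and 8 lower, and with the block on the name numbers 24 and 8, where SRSF12 was no longer called (adjusted p = 0.057).

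Signs changed only in uncalled members and in 2 ratios. With upper-quartile scaling the log2 fold changes of HNRNPR (-0.018), SF3A3 (-0.031), HNRNPC (-0.040), SRSF2 (-0.039) and HNRNPA1L2 (-0.018) were below 0, and without control sample 2 and knockdown sample 3 those of HNRNPC (-0.033) and HNRNPA1L2 (-0.0018) were. With single samples left out they ranged from -0.0073 to 0.10 for HNRNPR, from -0.0059 to 0.053 for SF3A3, from -0.016 to 0.042 for HNRNPC and from -0.032 to 0.058 for SRSF2. The shift of the pair TRA2A/TRA2B ranged from -0.074 to 0.081 and that of the pair HNRNPR/SYNCRIP from -0.029 to 0.038. The cause was not tested.

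With 3 samples a group, changes of members near 0 could not be told from the spread between samples. SRSF12 and the HNRNPA1 copies rest on few or shared reads, and gene counts do not separate isoforms. Shared sequence also touches larger members. The part of the 100-base windows that occurs in other genes was 44.8% for HNRNPUL2, 28.9% for HNRNPL and 27.1% for HNRNPA1. It was 26.7% for SRSF1, 14.5% for SRSF6 and 12.2% for HNRNPA3.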
